A study of Mus musculus with 32 samples.

Results

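The change in transcript levels of the wild-type (wt) mouse retina between postnatal day 4 (P4) and postnatal day 6 (P6) was measured on 8 arrays, 4 from P6 and 4 from P4, out of 32 in the study. The members were chosen by their labels alone, and all 22626 probe sets that are not array controls were compared, as P6 minus P4. Each sample held RNA from a pool of 8 to 14 retinas and was hybridised to 1 Affymetrix MOE430A array. Levels are the log2 values of the authors' Robust Multichip Average, on which a difference of 1 is a change of 2 fold. The wt mice were homozygous for the wild-type allele on a C57BL/6 background. For comparison, the same step was read in mice of that background carrying the rd1/le mutations, which are the retinal degeneration 1 mutation of Pde6b and the linked light ear mutation (rd1 P6 against rd1 P4, 4 arrays each), and the following step was read in wt (wt P8 against wt P6, 4 arrays each). The labels name no agent for any of these groups. The sources used here do not state the sex of the pups or whether the pools of a group came from separate litters. The p-values therefore cover the spread among these pools.

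In the first postnatal week the mouse retina passes from making neurons to maturing them. Late progenitors, which divide in the outer part of the retina, produce rods, bipolar cells and Mueller glia and then leave the cell cycle, in a wave that runs from the centre to the periphery, whereas ganglion, horizontal, cone and most amacrine cells are born earlier. Rods then build the phototransduction cascade, in which light-activated rhodopsin drives the G protein transducin, transducin drives the cGMP phosphodiesterase, and the fall of cGMP closes a cation channel. Bipolar cells receive the photoreceptor signal at ribbon synapses and relay it to the inner retina.

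Each comparison was made in a single limma model of the 32 arrays, and a probe set is called at an adjusted p under 0.05. A value that follows a gene name in parentheses, where no levels are given, is the difference of the mean log2 levels, P6 minus P4. Array medians ran between 6.58 and 6.66 at P6 and between 6.61 and 6.74 at P4, and the lowest correlation between arrays of 1 age was 0.987 at P6 and 0.994 at P4. Probe sets for Bacillus transcripts, which mouse RNA does not hold, read 1.75 to 4.89 on these 8 arrays, and a group whose 4 arrays all lay at or under the highest such value of their own array is described as within background. The first principal component (55.0% of the variance of the 8 arrays) separated the ages, and wt P4 replicate 3 lay nearest to P6. The second (21.7%) separated wt P6 replicates 1 and 4 from replicates 2 and 3. The Gapdh RNA quality control, its 3' minus its 5' probe set, was at 0.69, 0.28, 0.28 and 0.71 on the wt P6 arrays. On the wt P4 arrays it was at 0.37, 0.48, 0.22 and 0.46. The same control for actin was at 1.25, 1.17, 1.29 and 1.46 at P6, against 1.32, 1.19, 1.22 and 1.24 at P4. The part of these 3' to 5' differences in the results was not tested. The 18S ribosomal RNA controls, averaged over 3 probe sets, were at 9.74, 8.17, 4.37 and 9.77 on the wt P6 arrays, against 4.66, 6.07, 4.83 and 8.90 on the wt P4 arrays, and with this signal as a covariate 2653 probe sets were called in place of 2700. Transcripts of the Y chromosome differed between pools, with Ddx3y at 9.28, 9.22, 10.71 and 10.01 on the wt P6 arrays, against 10.17, 10.30, 10.59 and 9.83 on the wt P4 arrays, lowest on wt P6 replicates 1 and 2. None of the 4 Y-linked genes measured, nor Xist, was called, and the part of the sex of the pups in the other results was not tested. At P2, the first age of the study, Pde6b did not separate the genotypes (its level ran between 6.96 and 9.76 in wt and between 6.84 and 9.24 in rd1). The P2 arrays enter these comparisons only through the estimate of the spread, and without them 3028 probe sets were called.

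Pde6b, the gene mutated in rd1, encodes a catalytic subunit of the phosphodiesterase of rods. In wt it was at 13.33, 13.38, 13.31 and 13.30 on the wt P6 arrays, against 11.68, 11.82, 12.38 and 11.65 on the wt P4 arrays. All wt P6 arrays lay above all wt P4 arrays (difference 1.45, standard error 0.49, limma adjusted p = 0.0524; two-sided exact permutation test, p = 0.0286, the smallest that 4 arrays against 4 can give), so the gene did not pass this limma test. That missed call depends on the P2 arrays, on which its level did not follow the genotype labels. Without them the standard error was 0.21 and the limma adjusted p = 5.85e-05, and with the 8 arrays of these ages alone adjusted p = 0.000423. On the rd1 arrays it was at 10.52, 10.92, 10.68 and 10.65 at P6 and at 8.65, 9.19, 9.80 and 9.55 at P4, below each wt array of the same age. Rabac1, which encodes the prenylated Rab acceptor of vesicle traffic and was followed up in the study, was at 10.53, 10.90, 10.75 and 10.55 on the wt P6 arrays, against 9.92, 10.38, 10.26 and 10.26 on the wt P4 arrays (difference 0.48, standard error 0.49, limma adjusted p = 0.556), again with all P6 arrays above all P4 arrays. Without the P2 arrays its standard error was 0.17 and its adjusted p = 0.0554, and with the 8 arrays alone adjusted p = 0.0341.

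Of the 22626 probe sets, 2700 (11.9%) were called by limma, 1165 (5.15%) higher and 1535 (6.78%) lower at P6, with 5393 at an unadjusted p under 0.05. A change of 1.5 fold or more stood beside the call for 678 higher and 1057 lower probe sets, and one of 4 fold or more for 50 higher and 120 lower. The 4 arrays of P6 lay wholly above those of P4 for 2100 probe sets (9.28%) and wholly below them for 2117 (9.36%). With the arrays centred on their medians, which moves the median of all differences to 0.12 in place of 0.05, 1593 were higher and 1213 lower, so the balance of the directions depends on the scaling. Read per gene, with the brightest probe set standing for each of 12403 genes, 751 (6.05%) were higher and 940 (7.58%) lower, with a median difference of 0.06. The P6 arrays lay wholly above those of P4 for 1357 of these genes and wholly below them for 1314. These shares and counts and this median are the background for the gene lists that follow. The lists group genes by known role or cell type but were written with earlier results of these data known. Their counts are therefore described and not tested. The values of the 20 genes with the largest rises and the 20 with the largest falls are those of the gene's probe set of smallest p, and those of other genes are of the brightest probe set.

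**Figure D1:**
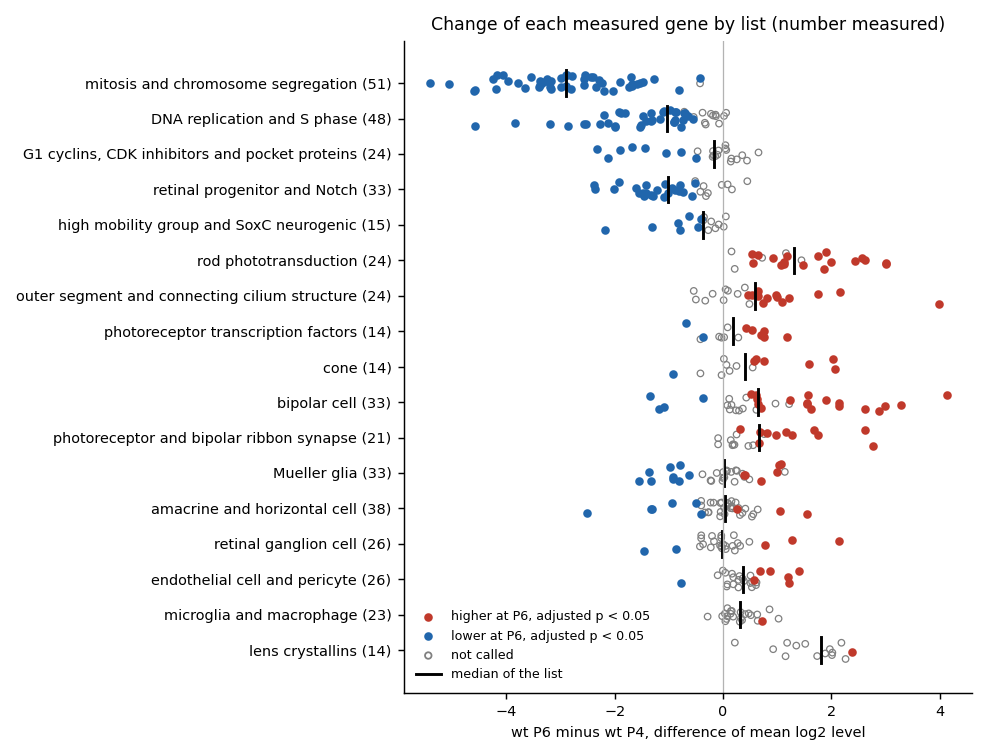
Difference of mean log2 level, wt P6 minus wt P4 (horizontal axis), for each measured gene of 17 lists (rows, with the number measured); filled points were called at a limma adjusted p under 0.05, open points were not, and the bar is the median of the list. Genes of mitosis lie between -5.41 and -0.42 with a median of -2.90, rod phototransduction genes lie above 0 with a median of 1.32, and Mueller glia genes lie on both sides of 0; the points of 1 rod gene and 1 outer segment gene are not drawn.

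By the median over a list, the largest change was the fall of mitosis genes. Of 51 measured genes of mitosis and chromosome segregation, 50 fell and none rose, with a median difference of -2.90 (all 51 below 0), against 7.58% of all genes lower and a median of 0.06. For 47 of the 51 each wt P6 array lay below each wt P4 array. In bulk retina, fewer dividing cells and less transcript per dividing cell cannot be told apart. Kif22, a kinesin of chromosome movement, was the 1 member that did not pass (difference -0.42, standard error 0.20, limma adjusted p = 0.203).

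Ccnb1, the cyclin B1 that drives entry into mitosis, was at 2.40, 2.64, 3.01 and 2.94 on the wt P6 arrays, against 8.99, 8.35, 7.26 and 8.02 on the wt P4 arrays. All P6 arrays were within background and all P4 arrays far above it (difference -5.41, standard error 0.34, limma adjusted p = 2.05e-11), which makes the gene at least 11.4-fold lower at P6. Such bounds set the mean of the bright group against the highest Bacillus value of each dim array. Cenpf, a protein of the kinetochore, was at 4.41, 4.61, 5.11 and 4.92 on the wt P6 arrays, against 10.18, 10.41, 8.77 and 9.94 on the wt P4 arrays (difference -5.06, standard error 0.35, adjusted p = 9.59e-11). Nusap1, which bundles spindle microtubules, was at 3.94, 4.42, 4.27 and 5.58 on the wt P6 arrays, against 9.51, 9.44, 8.36 and 9.22 on the wt P4 arrays (difference -4.58, standard error 0.31). On each of these genes wt P4 replicate 3 had the lowest level of its age, and it still lay above every P6 array.

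**Figure D2:**
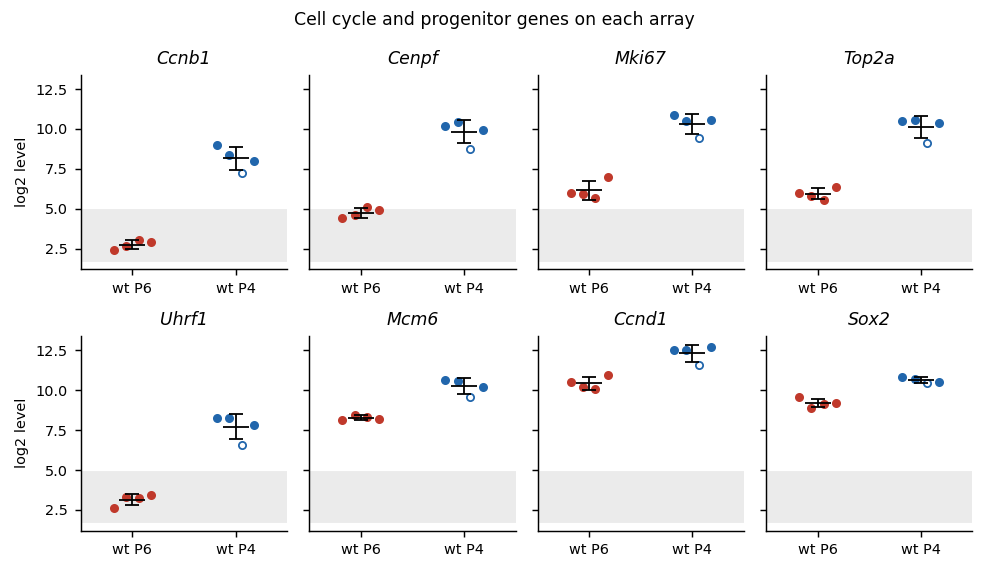
Log2 level of 8 cell cycle and progenitor genes on each array, wt P6 (red) left of wt P4 (blue); points are arrays in the order of replicates 1 to 4, bars are the mean ± SD of 4 arrays, the open point is wt P4 replicate 3 and the grey band is the range of the Bacillus control probe sets. The 2 ages do not overlap for any of the 8 genes, and the open point is the lowest P4 array in each panel.

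The same direction held for the other parts of the mitotic apparatus. Mki67, which encodes the Ki-67 antigen of cycling cells, was at 5.99, 5.95, 5.65 and 6.99 on the wt P6 arrays, against 10.87, 10.47, 9.41 and 10.53 on the wt P4 arrays (difference -4.17, standard error 0.46, limma adjusted p = 1.91e-07). Top2a, the topoisomerase that untangles sister chromatids, fell by 4.19 and Birc5, a subunit of the chromosomal passenger complex, by 4.24. The checkpoint kinase Bub1 was within background at P6 and at least 12.4-fold lower than at P4, Ccnb2, the cyclin B2, at least 9.33-fold lower, and the condensin subunit Ncapg at least 11.1-fold lower. Cenpa, the histone variant of the centromere, was at 5.61, 6.02, 6.01 and 6.16 on the wt P6 arrays, against 9.25, 9.32, 8.12 and 9.10 on the wt P4 arrays, a fall of 7.99 fold. Smaller falls were those of Nek2, a centrosomal kinase (-0.82), and Pttg1, the securin that holds sister chromatids together (-0.43). The count of mitosis genes called lower was between 48 and 50 whenever 1 of the 8 arrays was left out.

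The promoters of mitosis genes are known for the cell cycle homology region (CHR), searched here as TTTGAA or TTCGAA, and for CCAAT boxes, searched as CCAAT, each on both strands over the 250 bases before and 50 bases after the RefSeq start site (GRCm38.p6). TTCGAA is its own reverse complement. No printed match overlaps another. A CHR match was present in 32 of the 43 mitosis genes with a promoter in the table (74.4%), against 19.4% of all 27025 promoters and 14.7% of the promoters of the genes on the array. A CCAAT box was present in 33 of the 43 (76.7%), against 37.9% of all promoters. Among genes called lower at P6, 177 of 897 promoters (19.7%) held a CHR match, and among genes called higher 83 of 730 (11.4%). In this window the promoter of Ccnb1 held CCAAT boxes but no CHR match, and those of Nusap1 and Birc5 held neither element. Matches are letters in a sequence and were not tested as binding sites. The promoters of Cenpf (chr1:189688037-189688336, minus strand), Ccnb2 (chr9:70421505-70421804, minus strand) and Cdk1, the kinase partner of cyclin B (chr10:69352863-69353162, minus strand), are shown because they hold both elements near the start, with CHR matches and CCAAT boxes in capitals.
Cenpf: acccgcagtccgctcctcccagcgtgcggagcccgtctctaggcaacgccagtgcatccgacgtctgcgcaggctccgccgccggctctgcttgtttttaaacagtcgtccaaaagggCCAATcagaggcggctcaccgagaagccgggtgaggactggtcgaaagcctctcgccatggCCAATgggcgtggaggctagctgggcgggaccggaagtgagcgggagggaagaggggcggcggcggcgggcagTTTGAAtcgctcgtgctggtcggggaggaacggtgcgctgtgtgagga
Ccnb2: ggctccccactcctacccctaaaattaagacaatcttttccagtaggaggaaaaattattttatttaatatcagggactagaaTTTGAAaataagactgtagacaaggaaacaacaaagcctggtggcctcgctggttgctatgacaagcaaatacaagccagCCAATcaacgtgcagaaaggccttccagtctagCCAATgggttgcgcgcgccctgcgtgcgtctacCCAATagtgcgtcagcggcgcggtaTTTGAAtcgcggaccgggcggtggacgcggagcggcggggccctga
Cdk1: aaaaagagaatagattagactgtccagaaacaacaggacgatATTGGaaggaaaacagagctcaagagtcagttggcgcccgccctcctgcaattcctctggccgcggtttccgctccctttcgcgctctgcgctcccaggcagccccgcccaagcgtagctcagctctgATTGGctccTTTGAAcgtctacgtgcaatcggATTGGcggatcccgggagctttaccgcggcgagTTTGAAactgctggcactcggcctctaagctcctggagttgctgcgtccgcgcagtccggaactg
In Ccnb2, 3 CCAAT boxes begin 87, 54 and 21 bases before the start site, and in Cdk1 a CHR match begins 15 bases before it. Cdk1 was at 6.66, 6.79, 6.51 and 7.75 on the wt P6 arrays, against 10.36, 10.44, 9.26 and 10.36 on the wt P4 arrays (difference -3.18, standard error 0.34, limma adjusted p = 1.33e-07), without overlap.

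Genes of DNA replication fell as well, with a smaller median. Of 48 measured S phase genes, 36 fell and none rose, with a median of -1.03, and 34 did not overlap between the ages. Uhrf1, which recruits the maintenance DNA methyltransferase to replicated DNA, was at 2.62, 3.31, 3.24 and 3.44 on the wt P6 arrays, against 8.27, 8.25, 6.57 and 7.81 on the wt P4 arrays, all P6 arrays within background, which is at least 8.44-fold lower. Rrm2, the small subunit of ribonucleotide reductase, was at 4.08, 4.63, 4.57 and 4.92 on the wt P6 arrays, against 9.35, 9.47, 8.55 and 9.42 on the wt P4 arrays (difference -4.65, standard error 0.35, limma adjusted p = 4.88e-10), and its brightest probe set fell by 3.84. Mcm6, a subunit of the replicative helicase, was at 8.14, 8.47, 8.34 and 8.17 on the wt P6 arrays, against 10.65, 10.59, 9.58 and 10.23 on the wt P4 arrays (difference -1.99, standard error 0.18, adjusted p = 9.47e-09). The differences of the other subunits, Mcm2 to Mcm7, ran from -2.53 for Mcm5 to -0.89 for Mcm7. Ccna2, the cyclin of S phase and G2, fell by 2.86 and Dbf4, which activates the replication kinase Cdc7, by 2.56. Pcna, the sliding clamp, fell by 0.91 and was still at 11.59 ± 0.17 at P6 (SD, n = 4 arrays), whereas the flap endonuclease Fen1 (-0.19), the origin recognition subunit Orc6 (-0.14) and the single-strand binding protein Rpa1 (0.06) did not pass. The E2F element, searched as TTTCCCGC or TTTGGCGC on both strands, was present in 10 of 39 S phase promoters (25.6%). Its share was 1.63% of all promoters and 2.67% of those of the genes on the array. The promoters of Rrm2 and Uhrf1, whose falls were larger than that of Mcm6, did not hold this element. Mcm6 (chr1:128359656-128359955, minus strand) is shown because it holds this element at 2 places, in capitals.
Mcm6: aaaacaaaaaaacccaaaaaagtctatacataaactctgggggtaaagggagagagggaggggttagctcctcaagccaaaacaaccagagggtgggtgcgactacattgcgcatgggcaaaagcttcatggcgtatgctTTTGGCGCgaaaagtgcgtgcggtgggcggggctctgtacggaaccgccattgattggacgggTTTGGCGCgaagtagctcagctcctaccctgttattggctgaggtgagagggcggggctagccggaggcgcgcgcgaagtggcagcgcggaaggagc

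The regulators of G1 divided. Of 24 measured G1 cyclins, CDK inhibitors and pocket proteins, 8 fell, none rose and 16 did not pass, with a median of -0.16. Ccnd1, the cyclin D1 through which mitogens act on retinal progenitors, was at 10.53, 10.18, 10.05 and 10.94 on the wt P6 arrays, against 12.49, 12.52, 11.55 and 12.74 on the wt P4 arrays (difference -1.90, standard error 0.32, limma adjusted p = 0.000104). The pocket protein gene Rbl1 fell by 2.33, and Cdk2, the kinase partner of cyclins E and A, was at least 2.74-fold lower. CDK inhibitors, which act against division, were among the genes that fell, namely Cdkn2c (-2.13) and Cdkn1b (-1.04, adjusted p = 0.0156). Cdkn1c (0.25, adjusted p = 0.259), Ccnd3 (0.35, adjusted p = 0.232) and the DNA damage gene Gadd45a (0.65, adjusted p = 0.0940) had positive differences that did not pass.

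Progenitor genes fell together with those of the cell cycle. Of 33 measured genes of retinal progenitors and Notch signalling, 24 fell and none rose, with a median of -1.01. Sox2, a transcription factor that maintains progenitors, was at 9.56, 8.89, 9.12 and 9.23 on the wt P6 arrays, against 10.82, 10.73, 10.43 and 10.53 on the wt P4 arrays (difference -1.43, standard error 0.16, limma adjusted p = 3.27e-07). Among transcription factors of the eye field, Lhx2 fell by 1.32, Rax by 0.89 and Pax6 by 0.74, while Six3 differed by -0.42 (adjusted p = 0.0786). Of the Notch pathway, the ligand Dll1 was at 8.44, 8.38, 8.29 and 8.64 on the wt P6 arrays, against 10.26, 10.06, 9.58 and 10.30 on the wt P4 arrays, a fall of 3.06 fold, the receptor Notch1 fell by 1.43, and the targets Hes1 and Hes5 fell by 1.55 and 1.47. The proneural and neurogenic factors were not alike, for Olig2 and Neurog2 fell by 2.36 and 1.46, Neurod4 fell by 1.01, and Neurod1, which acts in young photoreceptors, was at 13.86 ± 0.22 at P6 and 13.78 ± 0.18 at P4 (SD, n = 4 arrays, difference 0.08). Sfrp2, a secreted Wnt antagonist of progenitors, was at 5.08, 3.94, 4.59 and 4.85 on the wt P6 arrays, against 7.19, 7.07, 6.74 and 6.98 on the wt P4 arrays (difference -2.38). Of 15 high mobility group and SoxC genes of progenitors and newborn neurons, 7 fell and none rose (median -0.36), led by the chromatin protein Hmgb2 at 9.56, 9.80, 10.14 and 10.15 on the wt P6 arrays, against 12.14, 12.18, 11.81 and 12.22 on the wt P4 arrays. That count was 3 or 4 without any 1 of the wt P4 arrays or without wt P6 replicate 2 or 3, and 4 under median centring. Of 6 histone genes, the variants H2ax (-1.20) and H2az1 (-0.89) and the linker histone H1f10 (-0.96) fell.

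Rod genes rose in the same interval. Of 24 measured rod phototransduction genes, 19 rose and none fell, against 6.05% of all genes, with a median difference of 1.32 and all 24 above 0. For 21 of them each P6 array lay above each P4 array. Gnat1, which encodes the alpha chain of the rod G protein transducin, had levels of 10.05, 9.65, 9.57 and 9.38 on the wt P6 arrays, against 6.29, 6.67, 7.53 and 6.16 on the wt P4 arrays (difference 3.0, standard error 0.55, limma adjusted p = 0.000279). Cnga1, the alpha subunit of the rod cyclic nucleotide-gated channel, was at 11.21, 11.43, 11.11 and 10.85 on the wt P6 arrays, against 8.11, 8.40, 9.38 and 8.26 on the wt P4 arrays (difference 2.61, standard error 0.30, adjusted p = 4.03e-07). Its beta subunit Cngb1 rose by 1.89. On both of the genes given by array wt P4 replicate 3 was the highest of its age, which is the mirror of its place among the mitosis genes.

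The members of the cascade rose by different amounts. The phosphodiesterase subunits Pde6a and Pde6g rose by 1.99 and 1.87. Slc24a1, the sodium, calcium and potassium exchanger of the outer segment, was at 6.73, 6.29, 6.63 and 5.19 on the wt P6 arrays, against 3.37, 3.01, 3.30 and 3.10 on the wt P4 arrays, with P4 within background and P6 at least 3.30-fold higher. Rcvrn, which encodes the calcium sensor recoverin, was at 12.66, 12.67, 12.58 and 12.29 on the wt P6 arrays, against 10.20, 9.49, 10.91 and 9.88 on the wt P4 arrays (difference 2.43, standard error 0.31, adjusted p = 1.98e-06), and Sag, the arrestin that ends the response of rhodopsin, was at 13.82, 13.92, 13.90 and 13.58 on the wt P6 arrays, against 12.48, 12.70, 13.01 and 12.55 on the wt P4 arrays (difference 1.12, standard error 0.13). Aipl1, a chaperone needed for the phosphodiesterase, rose by 1.74. Pdc, the phosducin that binds transducin, rose by only 0.53, and the transducin beta subunit Gnb1 (0.72, adjusted p = 0.434), Guca1b, an activator of guanylate cyclase (1.16, adjusted p = 0.0641), and Rgs9, which speeds the shut-off of transducin (0.16), did not pass. The guanylate cyclase gene Gucy2e was at 3.04 ± 0.34 at P6 and 2.82 ± 0.05 at P4 (SD, n = 4 arrays), in the range of the Bacillus controls.

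**Figure D3:**
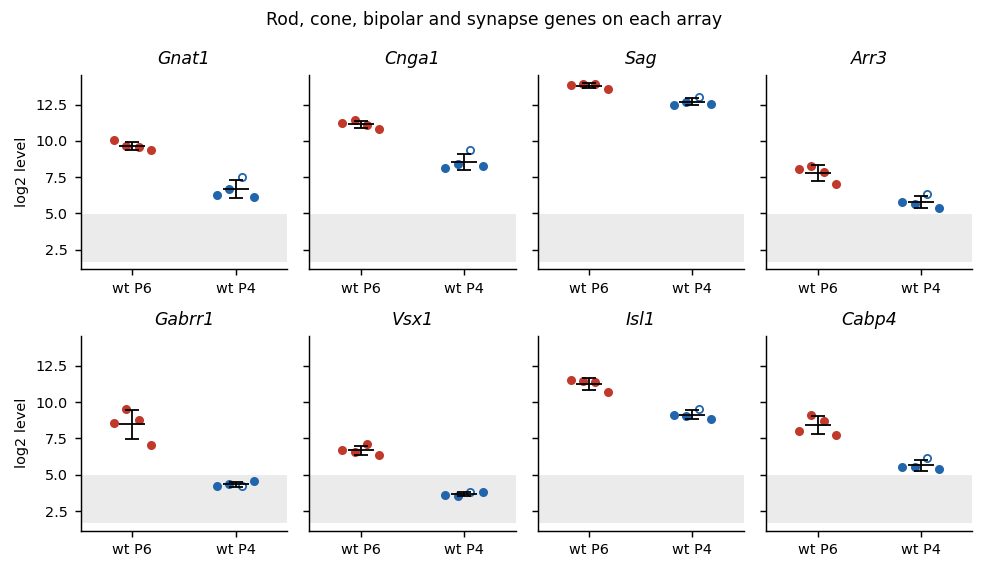
Log2 level of 8 rod, cone, bipolar and synapse genes on each array, wt P6 (red) left of wt P4 (blue); points are arrays in the order of replicates 1 to 4, bars are the mean ± SD of 4 arrays, the open point is wt P4 replicate 3 and the grey band is the range of the Bacillus control probe sets. The 2 ages do not overlap for any of the 8 genes, Gabrr1 and Vsx1 lie within the band at P4, and wt P6 replicate 4 is the lowest P6 array in each panel.

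Rod genes are known targets of the homeodomain factor CRX and the leucine zipper factor NRL. The CRX core TAATCC was found on either strand in 9 of the 18 rod genes with a promoter in the table, against 7.16% of all promoters and 5.75% of those of the genes on the array. The NRL core TGCTGA was found in 6 of the 18 (33.3%), against 19.1% of all promoters and 16.4% of those of the genes on the array. Its share was higher in some lists of other genes, such as the lens crystallins (69.2%). Over all genes called higher at P6 the CRX core stood in 59 of 730 promoters (8.08%) and over all called lower in 36 of 897 (4.01%). The NRL core stood in 109 of the 730 (14.9%) and in 131 of the 897 (14.6%), so it did not differ by direction in this way. The promoters of Sag (chr1:87803430-87803729, plus strand), Aipl1 (chr11:72037460-72037759, minus strand) and Cnga1 (chr5:72642703-72643002, minus strand) are shown because these genes rose and hold a CRX core, with both cores in capitals on whichever strand they were read.
Sag: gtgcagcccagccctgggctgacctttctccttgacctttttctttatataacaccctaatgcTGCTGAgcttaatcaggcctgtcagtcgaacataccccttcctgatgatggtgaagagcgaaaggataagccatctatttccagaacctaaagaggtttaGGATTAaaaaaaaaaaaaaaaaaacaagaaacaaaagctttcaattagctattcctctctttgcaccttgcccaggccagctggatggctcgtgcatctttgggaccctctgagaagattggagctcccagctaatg
Aipl1: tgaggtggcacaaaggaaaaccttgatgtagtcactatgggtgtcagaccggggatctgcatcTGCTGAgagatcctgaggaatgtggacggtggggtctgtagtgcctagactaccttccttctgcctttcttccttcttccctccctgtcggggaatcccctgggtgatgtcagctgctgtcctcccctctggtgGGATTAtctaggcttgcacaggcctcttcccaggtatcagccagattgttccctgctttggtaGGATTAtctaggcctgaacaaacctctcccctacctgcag
Cnga1: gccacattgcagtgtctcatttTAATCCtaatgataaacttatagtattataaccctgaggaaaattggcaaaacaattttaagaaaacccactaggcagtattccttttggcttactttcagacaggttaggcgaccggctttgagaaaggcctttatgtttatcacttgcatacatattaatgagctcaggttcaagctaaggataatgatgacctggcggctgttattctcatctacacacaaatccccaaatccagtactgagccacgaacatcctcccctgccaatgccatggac
The CRX core begins 87 bases before the start of Sag on the opposite strand. In Aipl1 it stands on the opposite strand 53 bases before the start and again at base 10 after it. It begins 228 bases before the start of Cnga1 on the gene's own strand. The promoters of Prph2 and Arr3, whose levels also rose, hold neither core in this window.

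Genes of the outer segment rose in part. Of 24 measured genes of the outer segment and connecting cilium, 14 rose and none fell (median 0.58). Prph2, the tetraspanin of the disc rim, was at 9.80, 10.53, 7.68 and 8.89 on the wt P6 arrays, against 5.72, 4.07, 5.87 and 5.27 on the wt P4 arrays (difference 3.99, standard error 0.69, limma adjusted p = 0.000164). Its P6 arrays spread widely (SD 1.23) but did not overlap those of P4, and its partner Rom1 was at 12.78, 13.16, 13.12 and 12.68 on the wt P6 arrays, against 11.66, 11.93, 12.38 and 11.82 on the wt P4 arrays (difference 0.99, standard error 0.15). Cdhr1, a cadherin at the base of the discs, rose by 1.09, Impg1, a proteoglycan of the matrix around the photoreceptors, by 2.15, and Rp1, a microtubule protein of the axoneme, by 1.21. The general ciliary genes Ift88 (0.01), Kif3a (-0.50, adjusted p = 0.172), Rpgr (-0.33) and Bbs2 (0.40) did not pass.

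The transcription factors of photoreceptors changed by at most 1.18. Of 14 measured, 6 rose and 2 fell, with a median of 0.18. Nrl, which sets the rod fate, was at 13.59, 13.44, 13.23 and 13.49 on the wt P6 arrays, against 12.86, 12.71, 13.10 and 12.95 on the wt P4 arrays (difference 0.53, standard error 0.11, limma adjusted p = 0.00171), and Crx rose by 0.43. Esrrb, a nuclear receptor of rods, rose by 1.18, Rora by 0.76 and Samd11 by 0.70. Otx2, which acts upstream in photoreceptors and bipolar cells, and Prdm1, which holds back the bipolar fate, fell by 0.37 and 0.68. When 1 array was left out, 4 to 6 were called higher and 1 or 2 lower. The lowest count of genes called higher came without wt P4 replicate 1, 2 or 4 or wt P6 replicate 2 or 3.

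Cones are born before birth, and their genes were mixed. Of 14 measured cone genes, 6 rose and 1 fell (median 0.40), shares of 42.9% and 7.14% beside 6.05% and 7.58% of all genes. Arr3, the cone arrestin, was at 8.07, 8.27, 7.86 and 7.03 on the wt P6 arrays, against 5.78, 5.67, 6.34 and 5.36 on the wt P4 arrays (difference 2.02, standard error 0.22, limma adjusted p = 1.23e-07), and Pde6c, the cone phosphodiesterase, rose by 1.58 and Kcne2, an accessory subunit of potassium channels, by 2.06. The cone transducin subunits Gnat2 and Gnb3 rose by 0.60 and 0.56. The opsin Opn1sw was at 11.38 ± 0.23 at P6 and 11.13 ± 0.17 at P4 (SD, n = 4 arrays). Opn1mw was at 3.44 ± 0.26 at P6 and 2.89 ± 0.12 at P4, in the range of the Bacillus controls. Neither opsin was called. Ccdc136 was at 10.30, 10.21, 10.17 and 10.75 on the wt P6 arrays, against 11.28, 11.29, 11.26 and 11.30 on the wt P4 arrays and fell by 0.92.

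Bipolar cell genes rose, several of them out of the background. Of 33 measured, 18 rose and 4 fell, with a median of 0.64. Gabrr1, the rho1 subunit of the GABA receptor of bipolar terminals, was at 8.54, 9.50, 8.75 and 7.07 on the wt P6 arrays, against 4.25, 4.38, 4.19 and 4.54 on the wt P4 arrays. All P4 arrays were within background and the gene was at least 15.8-fold higher at P6 (difference 4.12, standard error 0.37, limma adjusted p = 5.95e-09). Lhx3, a LIM homeodomain factor of OFF cone bipolar cells, was at 7.75, 7.56, 7.64 and 7.20 on the wt P6 arrays, against 3.26, 4.08, 4.87 and 4.84 on the wt P4 arrays (difference 3.28, standard error 0.33). Vsx1, a homeodomain factor of cone bipolar cells, was at 6.73, 6.54, 7.11 and 6.33 on the wt P6 arrays, against 3.59, 3.56, 3.78 and 3.83 on the wt P4 arrays, at least 4.56-fold higher, and Isl1, needed by ON bipolar cells and carried also by ganglion and some amacrine cells, was at 11.55, 11.43, 11.38 and 10.68 on the wt P6 arrays, against 9.11, 9.06, 9.53 and 8.81 on the wt P4 arrays (difference 2.13, standard error 0.16, adjusted p = 4.88e-10). These factors had P6 and P4 arrays wholly apart.

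The rise took in markers of rod and of cone bipolar cells. Bhlhe23, a factor of rod bipolar cells, was within background at P4 and at least 1.65-fold higher at P6. Pcp2, a G protein modulator of ON bipolar cells, rose by 1.89 on its brightest probe set. Scgn, the calcium-binding protein secretagogin of cone bipolar cells, rose by 2.88, Cabp5, another calcium-binding protein of bipolar cells, by 1.56 and Rgs11, which speeds the ON bipolar response, by 1.62. Trpm1, the cation channel of the ON bipolar dendrite, rose by 0.63, while Prkca, the kinase by which rod bipolar cells are stained, differed by 0.24 (adjusted p = 0.527). The members that fell were Otx2, given above, Irx5 (-1.18), Nfia (-1.36) and Rgs16 (-1.08). The count of genes called higher was 14 without wt P4 replicate 1 or wt P6 replicate 1, and 16 with the 18S signal as a covariate.

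Genes of the ribbon synapse rose with those of photoreceptors and bipolar cells. Of 21 measured, 11 rose and none fell (median 0.66). Cabp4, which regulates the calcium channel of the photoreceptor terminal, was at 8.01, 9.15, 8.73 and 7.77 on the wt P6 arrays, against 5.54, 5.50, 6.16 and 5.37 on the wt P4 arrays (difference 2.77, standard error 0.38, limma adjusted p = 5.83e-06). The channel subunits Cacna1f and Cacnb2 rose by 1.27 and 1.75. Cplx4, a complexin of ribbon synapses, rose by 2.61, Mpp4, a scaffold of the photoreceptor terminal, by 1.68 and Stx3, the syntaxin of ribbon synapses, by 1.15. Bsn and Pclo, the large proteins of the active zone, differed by -0.09 and -0.09, and the vesicle genes Snap25 (0.17) and Syt1 (0.25) also did not pass.

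Mueller glia genes went both ways. Of 33 measured, 6 rose, 9 fell and 18 did not pass, with a median of 0.02. Those that fell included genes that Mueller cells share with progenitors, such as Hes1, Lhx2, Sox9 (-0.80) and Dkk3 (-0.81), together with Glul, the glutamine synthetase of mature Mueller cells, at 10.62, 10.49, 10.07 and 9.92 on the wt P6 arrays, against 11.32, 11.40, 10.98 and 11.09 on the wt P4 arrays (difference -0.93, limma adjusted p = 0.00556), and the protease Prss23 (-1.37). Clu, a secreted chaperone, was at 10.54, 10.33, 10.01 and 10.55 on the wt P6 arrays, against 9.22, 9.18, 9.48 and 9.58 on the wt P4 arrays (difference 0.99, adjusted p = 0.00793), and Car14, a carbonic anhydrase of Mueller cells, rose by 1.03. Rlbp1, the retinal-binding protein of these cells, differed by 0.39 (adjusted p = 0.185), and their glutamate transporter Slc1a3 by 0.00 (standard error 0.14).

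Genes of neurons born before P4 went both ways. Of 38 measured amacrine and horizontal cell genes, 3 rose and 6 fell (median 0.04), and of 26 retinal ganglion cell genes 3 rose and 2 fell (median -0.03), beside 6.05% of all genes higher and 7.58% lower. Ptf1a, which commits progenitors to the amacrine and horizontal fates, was at 4.36, 4.43, 4.40 and 4.73 on the wt P6 arrays, against 7.71, 7.10, 5.89 and 7.21 on the wt P4 arrays, at least 5.03-fold lower at P6, and Atoh7, which makes progenitors competent for the ganglion cell fate, was within background at P6 at 3.80, 3.73, 3.72 and 4.61, against 5.13, 6.35, 4.51 and 5.67 at P4. The enzymes of GABA synthesis Gad1 (-0.27) and Gad2 (-0.18), the amacrine factor Tfap2b (-0.33) and the ganglion cell genes Gap43 (-0.03), Nefm (-0.03) and Stmn2 (-0.03) did not pass. Calb1, a calcium-binding protein of horizontal and amacrine cells, was at 8.31, 8.59, 8.12 and 8.09 on the wt P6 arrays, against 6.60, 6.65, 7.28 and 6.38 on the wt P4 arrays and rose by 1.55. Nefh, the heavy neurofilament chain, rose by 1.28 and Thy1, a surface glycoprotein of ganglion cells, by 0.77. The count of amacrine and horizontal genes called higher was 2 to 5 with 1 array left out. It was 5 without wt P4 replicate 3 or wt P6 replicate 3, under median centring and with the 18S covariate.

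Several of the largest changes lay outside the lists of retinal cell types. Otor, which encodes the secreted protein otoraplin, was at 9.22, 9.14, 9.12 and 9.08 on the wt P6 arrays, against 2.10, 2.88, 6.65 and 2.83 on the wt P4 arrays (difference 5.52, standard error 0.63, limma adjusted p = 3.14e-07). The P4 arrays spread over more than 4 units, with replicate 3 far above the other three. Gsg1, known from germ cells, was at 8.30, 8.49, 8.55 and 8.15 on the wt P6 arrays, against 3.16, 3.02, 5.75 and 3.20 on the wt P4 arrays (difference 4.59, standard error 0.44), again with P4 replicate 3 apart from its group. Vcam1, a cell adhesion molecule, was at 7.51, 7.99, 8.38 and 6.84 on the wt P6 arrays, against 4.42, 4.08, 5.22 and 3.98 on the wt P4 arrays (difference 3.26, standard error 0.38, adjusted p = 5.37e-07). Among the 20 largest falls, all of which are cell cycle or DNA replication and repair genes by their known roles, were also Cep55, of the cell abscission machinery, at least 11.9-fold lower, Cdca5, the sororin that holds sister chromatids, at least 14.1-fold lower, Rad51ap1, of homologous recombination, at least 4.07-fold lower, and Pclaf, a partner of the sliding clamp, which fell by 3.46.

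Markers of other tissues in or around the retina were measured beside these genes. The counts called stand beside 6.05% of all genes higher and 7.58% lower. All 14 lens crystallins had positive differences (median 1.81), and 1, Cryab, a small heat shock protein made also outside the lens, rose. For 8 of them each P6 array lay above each P4 array, beside 1357 of all 12403 genes. On its brightest probe set Cryab differed by 2.39 (limma adjusted p = 0.0126). It was not called there without wt P4 replicate 4 or wt P6 replicate 2. Its probe set of smallest p was at 8.09, 8.42, 7.55 and 7.24 on the wt P6 arrays. On the wt P4 arrays it was at 3.99, 3.5, 5.42 and 2.05. That difference was 4.09 (limma adjusted p = 0.000127), called in 8 of 8 refits that left out 1 array. A further Cryab probe set, in the range of the Bacillus controls, was not called (0.10). The mean over the 14 was 7.52, 7.97, 6.26 and 6.62 on the wt P6 arrays, against 5.92, 5.55, 6.09 and 4.31 on the wt P4 arrays, so that wt P4 replicate 4 was lowest and the spread within an age was wide. None of the 5 lens fibre genes other than crystallins was called, and Gja3, Mip, Hsf4 and Dnase2b were in the range of the Bacillus controls at both ages. Of 16 retinal pigment epithelium genes 1 fell, Rrh (-0.45), which was called in 3 of 8 refits that left out 1 array and not under median centring, and Rpe65 was at 3.95 ± 0.40 at P6 and 3.44 ± 0.28 at P4 (SD, n = 4 arrays). None of 8 red blood cell genes was called, with a mean over the list of 3.40 to 3.68 at P6 and 3.37 to 3.52 at P4. Of 23 microglia and macrophage genes 1 rose, Lyz2, and the mean over the list was 5.0 to 5.21 at P6 and 4.71 to 4.91 at P4. Differences were above 0 for 21 of the 23, and the count called higher was 0 without replicate 1 or 4 of either age, 3 without replicate 3 of either age and 4 under median centring. Of 25 genes of mesenchyme, sclera and muscle 1 rose and 2 fell, with the list mean at 4.97 to 5.27 at P6 and 5.01 to 5.10 at P4. The count of these called higher was 0 without wt P4 replicate 1, 2 or 4 or wt P6 replicate 2 or 4, and the count called lower was 1 without wt P6 replicate 4. The part of these cells in the changes of retinal genes was not tested.

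Genes of endothelial cells and pericytes rose in part. Of 26 measured, 6 rose and 1 fell (median 0.37, list mean 5.15 to 5.30 at P6 and 4.67 to 4.89 at P4). For 14 of them each P6 array lay above each P4 array, beside 1357 of all 12403 genes. Cldn5, a claudin of endothelial tight junctions, was at 7.46, 8.12, 7.83 and 7.65 on the wt P6 arrays, against 6.48, 6.57, 6.67 and 6.45 on the wt P4 arrays (difference 1.22, standard error 0.24, limma adjusted p = 0.000849), Esam, an endothelial adhesion molecule, rose by 1.20 and Rgs5, a regulator of G protein signalling in pericytes, by 1.40 on its brightest probe set. Kdr, the VEGF receptor, which retinal progenitors also carry, was at 10.35, 10.14, 10.04 and 9.90 on the wt P6 arrays, against 10.86, 11.06, 10.55 and 11.08 on the wt P4 arrays and fell by 0.78. The count of those called higher was 3 when wt P4 replicate 2, wt P6 replicate 2 or wt P6 replicate 3 was left out.

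Genes of lipid synthesis and of energy metabolism changed in part. Their counts stand beside 6.05% of all genes higher and 7.58% lower. Of 24 genes of the retinoid cycle and of membrane lipid synthesis, 3 rose and 6 fell (median -0.27). The members that fell make acetyl-CoA, fatty acids or sterols, and Hmgcs1, of the sterol pathway, was at 11.14, 11.34, 11.73 and 11.04 on the wt P6 arrays, against 12.03, 12.12, 11.91 and 12.15 on the wt P4 arrays (difference -0.74, standard error 0.14, limma adjusted p = 0.000532), Acly fell by 0.57 and Scd2 by 0.47. Rdh12, a retinol dehydrogenase of photoreceptors, was at 11.09, 11.13, 11.09 and 10.87 on the wt P6 arrays, against 8.42, 7.76, 9.40 and 8.31 on the wt P4 arrays (difference 2.57), and Rbp3, the retinoid carrier between photoreceptors and pigment epithelium, rose by 0.59. With the 18S covariate 5 of the 24 were called higher. Of 20 glycolysis genes 3 rose and 2 fell. Aldoc, counted also among the astrocyte genes, Eno2 and Hk1 rose by 1.49, 1.18 and 0.94. The hexokinase Hk2 and the kinase Pdk1, which holds back the entry of pyruvate into mitochondria, fell by 0.55 and 0.87. The count called lower was 0 without wt P4 replicate 1 or 2 or wt P6 replicate 4 and 1 without wt P4 replicate 3 or wt P6 replicate 1. The count called higher was 5 under median centring or with the 18S covariate. Of 23 genes of mitochondrial respiration 6 rose and none fell (median 0.27), led by the mitochondrial creatine kinase Ckmt1 at 9.86, 10.06, 10.05 and 9.84 on the wt P6 arrays, against 7.93, 7.70, 8.52 and 7.51 on the wt P4 arrays (difference 2.04, standard error 0.26), and the others rose by at most 0.42.

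The step from P4 to P6 was set against the same step in rd1 retina, in which Pde6b is mutant. In rd1, 494 probe sets (2.18%) were called higher and 1110 (4.91%) lower at P6, with 46 of 51 mitosis genes lower (median -1.91), beside 5.92% of all genes, and 14 of 24 rod genes (median 1.0) and 9 of 33 bipolar genes (median 0.35) higher, beside 2.52% of all genes. The difference of the 2 steps itself passed limma's test for 4 of 22626 probe sets (0.0177%), with 1418 at an unadjusted p under 0.05, and for none of them without the P2 arrays (1680 at an unadjusted p under 0.05). Ccnb1 fell by 5.41 in wt, and in rd1 it was at 6.01, 5.44, 5.85 and 5.11 at P6, against 9.01, 8.57, 8.08 and 8.03 at P4, which is a difference of -2.82 (standard error 0.34; wt step minus rd1 step -2.59, standard error 0.48, adjusted p = 0.0470). Cenpf and Nusap1 behaved alike on the probe sets given above, with -5.06 in wt and -2.32 in rd1 (adjusted p of the difference 0.0448) and -4.58 in wt and -2.07 in rd1 (adjusted p 0.0448). A second Nusap1 probe set differed by -0.76 in wt and -0.22 in rd1 and was not called here (adjusted p of the difference 0.910). A second Cenpf probe set, also not called, had means of 2.02 at wt P6 and 2.16 at wt P4, in the range of the Bacillus controls. The wt P6 arrays of Ccnb1 were within background, so its fall in wt has only the bound of at least 11.4-fold. The size of its difference from rd1 rests on values at the floor. Nusap1 was at 3.94, 4.42 and 4.27 on wt P6 replicates 1, 2 and 3, under the highest Bacillus values of these arrays (4.54, 4.61 and 4.55). Cenpf was under that value on wt P6 replicate 1 (4.41) and close to it on replicates 2 and 4 (4.61 and 4.92, against 4.61 and 4.89). The floor therefore limits the sizes given for these 2 genes as well.

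The fourth probe set went the other way in rd1. Vcan, which encodes the matrix proteoglycan versican, was at 5.62, 5.62, 5.03 and 5.61 on the wt P6 arrays, against 5.66, 5.68, 6.26 and 6.01 on the wt P4 arrays (difference -0.44, adjusted p = 0.174), without overlap, and in rd1 at 5.91, 6.25, 6.61 and 6.38 at P6, against 5.12, 5.14, 5.52 and 4.70 at P4 (difference 1.17; wt step minus rd1 step -1.60, standard error 0.28, adjusted p = 0.0448). The other Vcan probe sets were not called in this comparison. These 4 calls were near the threshold, for Ccnb1, Cenpf and Nusap1 were each called in 4 and Vcan in 6 of 16 refits that left out 1 array. None was called at all without wt P4 replicate 1, 2 or 4, wt P6 replicate 1 or 3, rd1 P4 replicate 2 or 4, or rd1 P6 replicate 3 or 4, and 10 were called without wt P4 replicate 3 or wt P6 replicate 4. Of the mitosis genes, 50 of 51 had a larger change in wt than in rd1 and 27 of 51 an unadjusted p under 0.05, of the rod genes 23 of 24 and 4, and of the bipolar genes 28 of 33 and 13, beside 6136 of 12403 genes with the larger change in wt and 883 with an unadjusted p under 0.05.

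**Figure D4:**
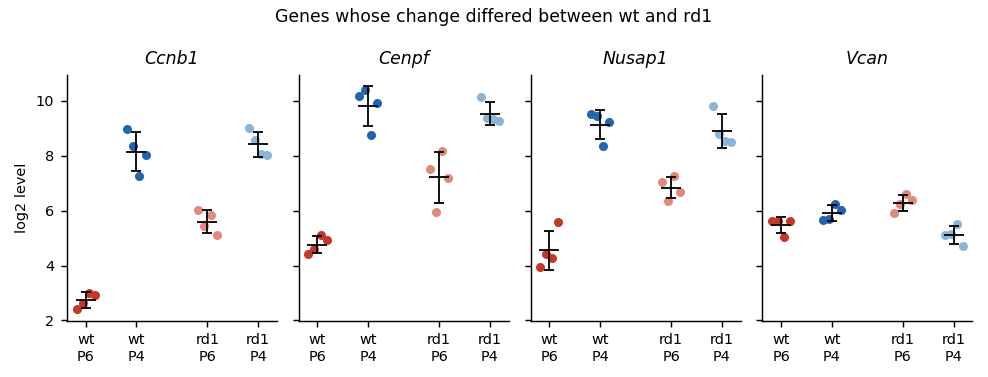
Log2 level of Ccnb1, Cenpf, Nusap1 and Vcan on each array of wt P6, wt P4, rd1 P6 and rd1 P4 (points, replicates 1 to 4), with the mean ± SD of 4 arrays. The fall of the first 3 genes is larger in wt than in rd1, with wt P6 below every rd1 P6 array, and Vcan has a lower mean at P6 than at P4 in wt and a higher mean at P6 than at P4 in rd1.

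The step was also set against the following one in wt, from P6 to P8. The 2 steps share the wt P6 arrays, so a high or low P6 array moves them in opposite directions. On the wt P8 arrays the Gapdh control was at 0.13, 0.30, 0.14 and 0.16 and the 18S controls at 4.69, 4.34, 4.75 and 4.65. Their values at P6 are given above. The 18S signal was tried as a covariate, and the part of the Gapdh difference in the results set against P8 was not tested. Their difference passed for 1504 probe sets (6.65%), 699 above and 805 below 0, with 842 to 1560 when 1 array was left out (842 without wt P6 replicate 4) and 848 with the 18S signal as a covariate. For 33 of 51 mitosis genes the difference of the steps passed below 0, a larger fall from P4 to P6, beside 3.5% of all genes. Of the 51, 19 were called lower again at P8, with a median of -0.60, beside 7.14% of all genes (7.6% of probe sets). Of the 33, 7 were within background on all wt P6 arrays and could not be measured to fall further. The part of this floor in the count was not tested. Of the progenitor genes, 8 of 33 had a difference of the steps that passed below 0, and 7 were called lower at P8. Ccna2 was at 10.81, 10.76, 9.54 and 10.68 on the wt P4 arrays, 7.45, 7.54, 7.46 and 7.89 at P6 and 6.46, 6.64, 6.39 and 6.69 at P8. Ccnd1, by contrast, was at 12.49, 12.52, 11.55 and 12.74 at P4, 10.53, 10.18, 10.05 and 10.94 at P6 and 9.38, 9.23, 8.77 and 8.18 at P8, with changes of -1.90 and -1.54.

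Genes that rose also differed between the steps. Vsx1 was at 3.59, 3.56, 3.78 and 3.83 at P4, 6.73, 6.54, 7.11 and 6.33 at P6 and 6.73, 6.46, 6.80 and 5.50 at P8 (difference of the steps 3.29, standard error 0.42, limma adjusted p = 3.01e-05). Gnat1 was at 11.62, 11.52, 12.51 and 13.56 at P8, a further change of 2.64 after 3.0. Of the rod genes 13 of 24 and of the bipolar genes 18 of 33 were called higher at P8 than at P6, with medians of 0.72 and 0.60, beside 7.01% of all genes. For 5 rod and 7 bipolar genes the difference of the steps passed above 0, a more positive change from P4 to P6, beside 2.85% of all genes. It passed below 0 for 1 rod and 1 bipolar gene, beside 3.5% of all genes. Prph2 was at 6.23, 7.23, 6.68 and 7.28 at P8, below each wt P6 array, so its level at P6 was above that of both neighbouring ages.

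Some genes turned at P6. Cdh11, a cadherin, was at 10.48, 10.31, 10.25 and 10.25 at P4, 9.28, 9.28, 9.34 and 9.22 at P6 and 9.91, 9.74, 9.88 and 9.92 at P8, and Irs1, an adaptor of the insulin receptor, at 10.52, 10.60, 10.27 and 10.60, 9.58, 9.31, 9.26 and 9.32 and 9.77, 9.87, 9.84 and 9.63 (differences of the steps -1.62 and -1.54, adjusted p = 6.66e-06 and 1.71e-05). Ap2b1, a subunit of the clathrin adaptor, turned likewise, with -0.76 and then 1.18. Ppef2, a protein phosphatase of photoreceptors, rose by 1.00 and then changed by -0.49, and Cacna2d1, an auxiliary subunit of calcium channels, was at 3.89, 4.26, 4.16 and 3.98 at P4, within background, 6.08, 5.18, 5.49 and 6.12 at P6 and 4.02, 4.24, 3.57 and 3.68 at P8. Srek1 and Gpatch8 changed little from P4 to P6 (0.43 and 0.23) and by -2.30 and -1.48 from P6 to P8. Agtpbp1 and Slc38a5, an amino acid transporter, were in the range of the Bacillus controls at both P4 and P6, and no change is given for them.

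**Figure D5:**
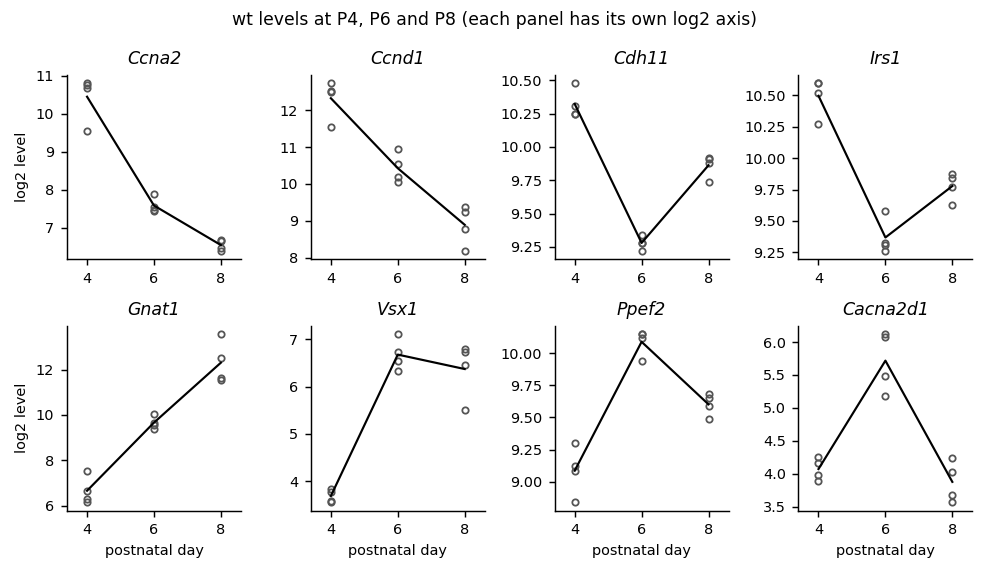
Log2 level of 8 genes on the wt arrays of P4, P6 and P8 (open points, 4 arrays an age; the line joins the means, and each panel has its own log2 axis). Ccna2 falls mainly before P6 and Ccnd1 over both steps, Cdh11 and Irs1 are lowest at P6, Gnat1 is highest at P8, and Ppef2 and Cacna2d1 are highest at P6.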

How the data were processed

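The authors summarised 32 MOE430A arrays with Robust Multichip Average (version not given in the sources used here) and deposited log2 values of 22690 probe sets. The 64 array controls among these were not tested. A second deposited table holds the authors' own fold changes and p-values and was not used. Of the probe sets 20380 carried 1 gene symbol in the platform annotation, 691 several and 1555 none listed, and 10 of those not listed were named from a gene table of the study.

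The change from P4 to P6 was fitted with limma 3.58.1 (R 4.3.3) as 1 mean for each of 8 groups over 32 arrays, with an intensity trend, Benjamini-Hochberg adjustment over 22626 probe sets and 24 residual degrees of freedom. Gene counts used the brightest probe set. Named were the 20 largest rises and 20 largest falls among calls without overlap (each gene's probe set of smallest p), the 4 members of each list with the smallest p, Pde6b and Rabac1, and up to 6 calls of smallest p in each direction for either difference of steps. Other list members named in the text were chosen after their values were seen. Members and lists were chosen with earlier results of these data known. The script was tested on simulated data. Alternatives were other sets of arrays, moderation, weights, centring, quantile normalization, filters and thresholds. The 18S covariate was added after seeing the data. Values of 2 genes are not reported here, though counts include them.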

Additional observations from a re-analysis of the deposited data

Results flagged for a closer look

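Among 314 groups of 4 arrays, which are the 2 ages of each of the 157 named probe sets, 20 had 1 array set apart from the other three by Dixon's test of gap over range, where chance gives about 1 in 20 groups. Of these, 13 were on wt P4 replicate 3. On that array 8 cell cycle genes were below the other P4 arrays, at 8.55 for Rrm2, 8.41 for Birc5, 9.10 for Top2a, 7.11 for Cdca5, 6.89 for Ncapg, 7.75 for Cdca3, 8.36 for Dbf4 and 9.54 for Ccna2. On the same array Gsg1 (5.75), Pcp2 (4.25 on its dimmer probe set), Pde6g (11.96), Grik2 (6.67) and Ier3 (9.02) were above the other P4 arrays. These values lie toward those of P6 except that of Grik2, which lies away from them. On wt P6 replicate 4, Rdh12 (10.87) and Cdhr1 (12.35) were below and Atoh7 (4.61) above the other P6 arrays. Gria1 (7.41) and Vcan (5.03) were low on wt P6 replicate 3, Ppef2 (9.94) on wt P6 replicate 2 and the Y-linked Kdm5d (6.17) on wt P4 replicate 4. None of these was weighed further.

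The change from P4 to P6 differed between wt and rd1 retina, by the test of the difference itself, for Ccnb1 (-2.59) and for 1 probe set each of Cenpf (-2.75), Nusap1 (-2.51) and Vcan (-1.60). Each value is the log2 change in wt minus that in rd1. Over all 22626 probe sets these were 0.0177% of the tests.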

How the results depend on the processing

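The 4 arrays an age and 24 residual degrees of freedom limit the precision. No depth can be given for array signals, and genes within the range of the Bacillus controls (1.75 to 4.89) have no measured change below it. The number of probe sets called between wt P6 and wt P4 (2700) became 1735 with a change of 1.5 fold also required, 327 in a test against 1.5 fold, 5887 with array quality weights and 1869 to 2630 with 1 array left out (2546 without wt P4 replicate 3). The number for which the wt and rd1 changes differed (4) became 0 without the P2 arrays, 0 with no intensity trend, 0 with a further quantile normalization, 0 in the test against 1.5 fold, 334 with array quality weights, 996 by a fold of 1.5 with no test and 0 to 10 with 1 array left out. The number for which the change from P4 to P6 differed from that from P6 to P8 (1504) became 4752 by a fold of 1.5 with no test, 143 in the test against 1.5 fold, 4843 with array quality weights, 848 with the 18S signal as a covariate and 842 to 1560 with 1 array left out (950 without wt P6 replicate 1 and 842 without wt P6 replicate 4). Causes were not tested. Of 157 named probe sets 123 were called, and none of the 123 changed direction under the alternatives run. Many alternatives leave the difference of the 2 means as it is, so they could not change a direction. Nor could leaving out 1 array for genes chosen without overlap. The unchanged directions are therefore no separate support. Of them 119 to 123 stayed called under every alternative that kept all 22626 probe sets and the plain threshold, 75 in the test against 1.5 fold and 115 to 122 with 1 array left out. Calls of Atp5b, Rrh, Postn and Sox11 were lost under the further quantile normalization, that of Rrh under median centring, and those of Gria1 and Postn with the 18S covariate. The groups share replicate numbers, and the labels do not say whether these pair the samples. The deviations of same-numbered P6 and P4 arrays correlated at -0.14, -0.15, 0.23 and 0.47. Those of differently numbered arrays ran from -0.44 to 0.28. So few values cannot decide whether the numbers pair samples, and the samples were taken as unpaired. A replicate block gave 2867, 0 and 1700 probe sets in the 3 comparisons.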

Other observations

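Immediate early genes, which respond to activity and stress, rose in 3 and fell in 1 of 17 measured cases (median 0.05). These are shares of 17.6% and 5.88%, beside 6.05% and 7.58% of all genes. Egr1 was at 8.80, 8.40, 8.64 and 8.19 on the wt P6 arrays, against 6.31, 6.72, 6.34 and 6.82 on the wt P4 arrays (difference 1.96, standard error 0.40, limma adjusted p = 0.00103), with no overlap between the ages. Ier3 rose by 0.82 and Dusp1, a phosphatase of MAP kinases, fell by 0.92, while Fos (0.38, adjusted p = 0.629) and Jun (0.02) did not pass. Atf3 was called higher at levels of 2.95, 2.68, 2.63 and 2.71 at P6, against 2.15, 2.48, 2.52 and 2.58 at P4, which are in the range of the Bacillus controls.

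Of 30 apoptosis genes, 3 rose and 5 fell (median 0.06), shares of 10.0% and 16.7% beside 6.05% and 7.58% of all genes. The initiator caspase Casp2 was at 9.23, 8.94, 9.21 and 9.02 on the wt P6 arrays, against 10.12, 10.28, 9.84 and 10.01 on the wt P4 arrays (difference -0.96, limma adjusted p = 1.85e-05), the apoptosome scaffold Apaf1 fell by 0.88 and the BH3-only gene Bcl2l11 by 0.85. Endog, a mitochondrial nuclease, rose by 1.28, Bcl2l2, a survival protein, by 0.69, and Xiap, an inhibitor of caspases, by 0.33. The count called higher was 1 without wt P4 replicate 2 or 4. Of 22 receptors for GABA, glycine and glutamate, 2 rose (9.09%, beside 6.05% of all genes). These were Gabrr1 and the AMPA receptor subunit Gria1 (0.51, adjusted p = 0.0324), and Gria2 differed by 0.52 (adjusted p = 0.0733). Gria1 was called in 2 of 8 refits that left out 1 array, those without wt P4 replicate 4 or wt P6 replicate 3. Of 9 astrocyte genes 2 rose (22.2%, beside 6.05% of all genes), Aldoc and S100b (0.80). Gfap was at 7.52 ± 0.14 at P6 and 7.03 ± 0.20 at P4 (SD, n = 4 arrays, adjusted p = 0.0912). The astrocyte count was 1 without wt P4 replicate 1 or 2 or wt P6 replicate 2 or 3.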
